A study of Mus musculus with 4 samples.

Results

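The cytosolic ribosomal protein genes encode the proteins of the ribosome that translates nuclear messenger RNA. They were chosen here by symbol alone, as protein-coding genes named Rpl or Rps followed by a number and at most 1 of the letters a, x, l or y, together with Rplp0, Rplp1, Rplp2 and Rpsa. Of the 21631 coding genes of the mouse build GRCm38 on the numbered chromosomes (1 to 19) and X, the rule found 81. The 81 comprised 46 genes of the large subunit, 30 genes of the small subunit, and 5 paralogs whose symbols end in l (Rpl3l, Rpl10l, Rpl32l, Rpl39l and Rps27l). Of the 46 large-subunit genes, 3 encode the stalk (Rplp0, Rplp1 and Rplp2). No value measured in these cells entered the symbol rule, though earlier results of these data were known when it was chosen.

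The study mapped H3K27ac, the acetylated lysine 27 of histone 3, by ChIP-seq in mouse Th17 cells, helper T cells known for secreting IL-17. The cells were naive CD4+ T cells of C57BL/6 mice grown for 72 h with 0.25 µg/mL anti-CD3ε, 1 µg/mL anti-CD28, 20 ng/mL IL-6 and TGF-β, given as 0.1 ng/mL in the treatment label and as a range in the growth protocol. There were 2 IP libraries and 2 input DNA libraries, from 2 biological replicates, and no other cell type, genotype or time point. One list of 56285 peaks was used, of which 56284 lay on the chromosomes named above, and it gives positions but no height, score or replicate. All values below are therefore presence and length of peaks in 1 list, with no spread between replicates. Read depth is unknown, and the level of acetylation inside a peak could not be compared. No test of a difference between gene groups was made, because genes of 1 list are not replicates of a condition.

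A ribosome has a small subunit, which decodes the messenger RNA, and a large subunit, which joins amino acids, and most of its proteins are needed in equal number. Ribosomal protein genes are short, highly transcribed housekeeping genes, and many begin with a pyrimidine tract known as the 5′ TOP (terminal oligopyrimidine), through which their messenger RNAs respond to mTOR. H3K27ac marks active promoters and enhancers, and activated T cells make many ribosomes before they divide.

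The identity of the cells was read first from marker genes. All 8 T cell and Th17 marker genes found in the gene table had a peak at a gene start, with a median of 12059 bp of peaks in their windows. None of 7 markers of other cells had one. Of those, Cd79a, a B cell receptor gene, had 6405 bp of peaks in its window, and the other 6 had 0.

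A gene-start peak was one within 1000 bp of an annotated gene start. It was found at 77 of 81 ribosomal protein genes (95.1%, exact 95% interval 87.8 to 98.6%, which covers the number of genes only). The same was true of 54.2% of all protein-coding genes and of 40.5% of the 8425 protein-coding genes in the members' range of length (592 to 11774 bp). For 20 members the promoter table had no entry, and either gene end then counted as a start. The same rule held for every other protein-coding gene without an entry. A peak anywhere in the gene or 5000 bp on each side, a region called the window below, was found for 79 of 81 members (97.5%), against 63.8% of all protein-coding genes. Every one of the 76 members that are not paralogs had a gene-start peak. The 4 members without one were all paralogs.

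The acetylated length, the number of bases of the window under peaks, had a median of 3744 bp over the 81 members, with quartiles of 3011 and 5315 bp. Its median was 1374 bp over all protein-coding genes and 0 bp over genes of the members' range of length. Much of that gap lay between genes with and without a peak: among genes with a gene-start peak the median was 2923 bp, and 2592 bp for those of like length. Of the 81 members, 78 were above the median of all protein-coding genes, 13 above percentile 90 and 2 above percentile 95. The members thus lay in the upper part of the distribution without reaching its far end.

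**Figure D1:**
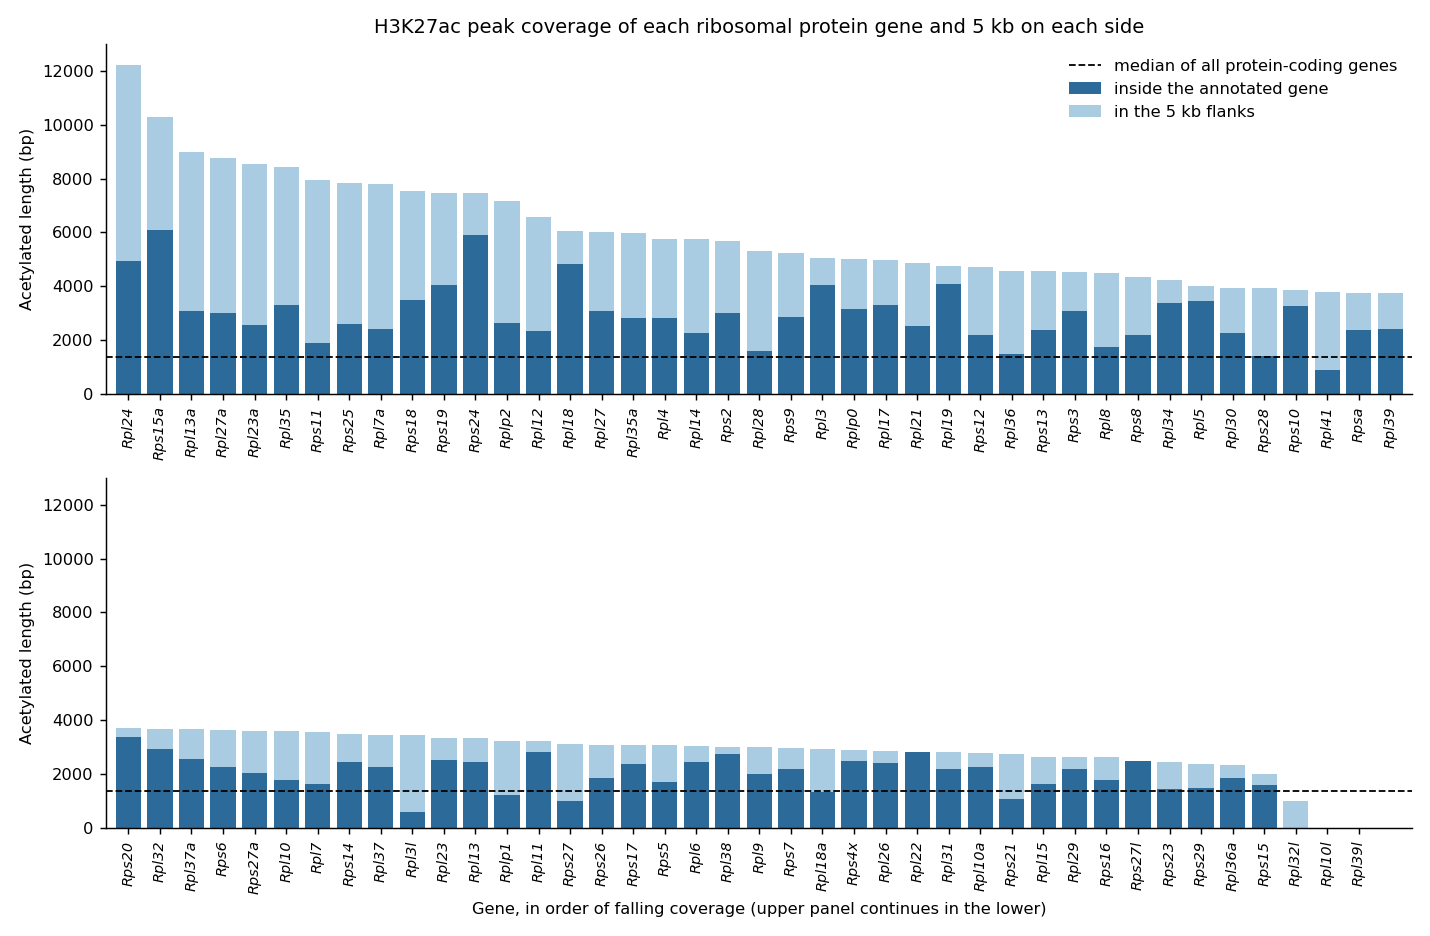
Acetylated length (bp under peaks in the gene and 5000 bp on each side) of each ribosomal protein gene, split into bases inside the gene and in its flanks. Values run from 0 bp at Rpl10l and Rpl39l to 12237 bp at Rpl24.

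The promoters of members at both extremes of the gene-start peak, of the stalk genes and of the members without a gene-start peak are printed next, because the sequence at the start is what the 5′ TOP refers to. Each runs from 100 bases before to 30 bases from the annotated start, on the gene's strand, 5′ to 3′, from RefSeq on GRCm38.p6. Capitals mark every run of at least 8 pyrimidines (C or T) that overlaps the 25 bases on either side of the start, and a sequence with no capitals has no such run. Rps15a and Rpl18 had gene-start peaks among the 3 widest, and Rpl6, Rps24 and Rps4x had the 3 narrowest.
Rps15a, chr7:118116118-118116247, minus strand: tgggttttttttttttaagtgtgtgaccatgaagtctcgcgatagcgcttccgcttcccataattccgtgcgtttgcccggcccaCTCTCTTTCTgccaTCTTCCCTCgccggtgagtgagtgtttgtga
Rpl18, chr7:45717971-45718100, plus strand: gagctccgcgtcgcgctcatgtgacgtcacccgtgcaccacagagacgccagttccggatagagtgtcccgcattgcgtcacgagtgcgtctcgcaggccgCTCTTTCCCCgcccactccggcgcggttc
Rpl6, chr5:121204401-121204530, plus strand: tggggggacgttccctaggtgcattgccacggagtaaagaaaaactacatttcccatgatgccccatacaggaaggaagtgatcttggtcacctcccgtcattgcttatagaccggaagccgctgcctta
Rps24, chr14:24490578-24490707, plus strand: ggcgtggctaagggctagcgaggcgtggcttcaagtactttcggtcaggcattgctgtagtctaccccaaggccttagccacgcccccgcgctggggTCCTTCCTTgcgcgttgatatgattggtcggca
Rps4x, chrX:102189362-102189491, minus strand: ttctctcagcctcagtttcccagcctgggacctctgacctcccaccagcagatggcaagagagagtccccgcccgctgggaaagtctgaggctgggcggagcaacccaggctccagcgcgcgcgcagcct
The stalk genes Rplp0 and Rplp2, whose proteins belong to the flexible arm of the large subunit that recruits elongation factors, follow.
Rplp0, chr5:115559367-115559496, plus strand: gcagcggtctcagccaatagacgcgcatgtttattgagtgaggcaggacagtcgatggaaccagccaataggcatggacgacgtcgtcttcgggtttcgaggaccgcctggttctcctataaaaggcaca
Rplp2, chr7:141447551-141447680, plus strand: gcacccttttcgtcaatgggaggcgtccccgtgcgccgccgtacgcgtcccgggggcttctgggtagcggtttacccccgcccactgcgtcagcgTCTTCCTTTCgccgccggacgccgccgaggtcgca
The last set holds the paralogs without a gene-start peak.
Rpl10l, chr12:66284372-66284501, minus strand: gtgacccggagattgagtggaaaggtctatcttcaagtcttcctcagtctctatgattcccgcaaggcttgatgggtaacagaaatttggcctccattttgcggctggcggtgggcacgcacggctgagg
Rpl32l, chr10:20208339-20208468, plus strand: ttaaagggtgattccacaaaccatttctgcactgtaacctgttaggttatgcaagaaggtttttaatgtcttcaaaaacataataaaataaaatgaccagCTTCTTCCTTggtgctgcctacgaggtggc
Rpl39l, chr16:10170128-10170257, plus strand: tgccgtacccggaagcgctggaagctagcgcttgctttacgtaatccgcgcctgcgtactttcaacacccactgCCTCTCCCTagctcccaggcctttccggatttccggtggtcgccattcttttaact
Rpl3l, chr17:24727726-24727855, plus strand: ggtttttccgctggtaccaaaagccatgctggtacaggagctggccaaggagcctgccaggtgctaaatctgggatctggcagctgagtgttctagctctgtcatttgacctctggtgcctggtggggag
Rps15a carried a tract of 10 bases before the start and another of 9 bases over it. A tract was also marked in Rpl18 (10 bases), Rps24 (9 bases), Rplp2 (10 bases) and the paralogs Rpl32l (10 bases) and Rpl39l (9 bases). The tracts of Rps24, Rplp2 and Rpl32l covered the annotated start as well. Of the printed promoters, both with wide peaks, 1 of the 3 with narrow peaks and 2 of the 4 without a gene-start peak thus carried a tract. The promoter table held no entry for Rpl23a or Rplp1.

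Among the genes of the large subunit, the median acetylated length was 3967 bp (46 genes, paralogs left out). Rpl24, which encodes a protein at the contact of the subunits, had the most of all members, 12237 bp in 10 peaks around its gene at chromosome 16, 55966275 to 55971437. Of these, 4920 bp lay inside the gene, 95.3% of its length, and 7317 bp in the flanks, where Zbtb11 also lies. Rpl13a, known for a role outside the ribosome in silencing inflammatory messenger RNAs, had 9002 bp in 3 peaks (chromosome 7, 45125563 to 45128745). Rpl27a had 8764 bp in 5 peaks (chromosome 7, 109519195 to 109522369). Rpl23a, which encodes a protein near the exit of the peptide tunnel, had 8531 bp in 3 peaks (chromosome 11, 78180935 to 78183584). In all 4 of these genes over 90% of the gene body was under peaks, and the flanks held more acetylated bases than the gene.

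The shortest acetylated length in the large subunit outside the paralogs was that of Rpl36a, with 2329 bp in 3 peaks on chromosome X. The 4 members on chromosome X (Rpl10, Rpl39, Rpl36a and Rps4x) all had gene-start peaks, with a median acetylated length of 3248 bp. Rpl4, whose introns hold the most small nucleolar RNA genes of any member (5), had 5760 bp in 3 peaks. Small nucleolar RNAs guide chemical changes of ribosomal RNA, and 29 members held 58 of their genes. The median share of the gene under peaks was 82.7% for members with such a gene and 81.9% for the 47 others outside the paralogs, so the values lay close together.

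The stalk genes did not stand together. Rplp2 had 7152 bp of acetylated length in 4 peaks, Rplp0 had 5020 bp in 6 peaks and Rplp1 had 3223 bp in 2 peaks. Their widest gene-start peaks measured 3134, 1982 and 3078 bp in that order. The narrower peak of Rplp0 ended 1906 bp after its start, and its other peaks held 1252 bp inside the gene and 1786 bp in the flanks. Rplp1, the shortest of the stalk genes at 1228 bp, was covered by peaks over its whole length.

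Among the genes of the small subunit, the median acetylated length was 3718.5 bp (30 genes, paralogs left out), close to that of the large subunit. Rps15a stood highest with 10276 bp in 8 peaks (chromosome 7, 118104374 to 118116147). At 11774 bp it was also the longest member, and 51.9% of it was under peaks. Rps15, whose protein lies near the decoding site, was the lowest outside the paralogs, with 1991 bp in 2 peaks (chromosome 10, 80292431 to 80294114). Rps15 is 1684 bp long, and 94.0% of it was under peaks. Rps19, the gene most often mutated in Diamond-Blackfan anemia, had 7473 bp in 6 peaks and no other protein-coding gene in its window.

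Several small-subunit genes have a special makeup. Rpsa, whose protein was also described as a laminin receptor, had a single peak of 3745 bp, from 1374 bp before its start to 2370 bp after it. Rps27a, which encodes ubiquitin fused to a ribosomal protein, had 3596 bp in 3 peaks. Its widest gene-start peak, of 3281 bp, also covered the start of the neighbour Clhc1. Rps4x had 2906 bp in 6 peaks, the widest of 1451 bp at its start.

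The 5 paralogs among the members differed from the rest and among themselves. Rps27l, known as a target of p53, had a single peak of 2488 bp, which reached from 873 bp before its start to 1614 bp after it. Rpl10l, a gene of the male germ line, had no peak in its window, and the nearest lay 1088356 bp from the gene (chromosome 12, 66283379 to 66284401). Rpl39l, also known from the testis, had none either, with the nearest 111851 bp away (chromosome 16, 10170197 to 10174911). Rpl32l had 994 bp in its window, the nearest peak being 2809 bp away on the side of Map7 (chromosome 10, 20208439 to 20209030). The peaks in the window of Rpl3l, known from striated muscle, came to 3434 bp, but only 575 bp of them lay inside the gene. Thus 3 of the 4 paralogs without a gene-start peak had 0 bp inside the gene, and Rps27l was the only one of the 5 with a gene-start peak. These values do not speak for paralogs that the symbol rule missed, such as Rpl22l1, which had a gene-start peak of 1752 bp.

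Rpl3l lies beside Rps2 on chromosome 17 and shows how neighbours enter the windows. The start of Rps2 had a peak from 1333 bp before to 983 bp after it, followed by peaks to 2823, 4450 and 4769 bp. No peak lay between there and 15506 bp, and Rpl3l spans 7763 to 16080 bp on the same scale. The 2 peaks at its far end, from 15506 to 16430 and from 16520 to 17268 bp, bordered the gene Msrb1, which begins at 16530 bp. Rpl3l has 2 annotated starts. From the outer one (24727826) the nearest peak was 2994 bp away, on the side of Rps2 and Ndufb10, and from the inner one (24732685) it was 2884 bp away, on the side of Msrb1.

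**Figure D2:**
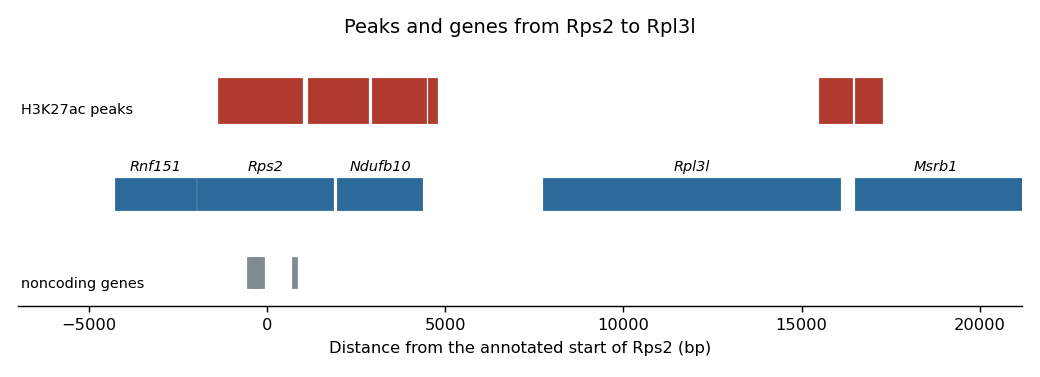
Deposited peaks and protein-coding genes from Rps2 to Rpl3l, by distance from the annotated start of Rps2 in bp; Msrb1 runs on past the right edge. Peaks cover 79.0% of Rps2, whereas the interior of Rpl3l is empty up to its last 575 bp.

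The gene-start peak, taken as the widest one near a start, had a median width of 2946 bp over the 77 members that had one (quartiles 2406 and 3593 bp, range 1233 to 7519 bp). Over all 11718 protein-coding genes with such a peak the median was 1808 bp (quartiles 1182 and 2650.5 bp), and over those of like length 1843 bp. Of the 77 members, 71 were above the median of all genes, 51 above the upper quartile and 0 below the lower quartile. The widest belonged to Rpl23a (7519 bp), Rps15a (6541 bp), Rpl18 (6059 bp), Rpl13a (4701 bp) and Rps19 (4635 bp). The strand of Rpl23a is not known here, and its peak lay over only 1 end of the gene, so its rank holds only if that end is the start. Rps15a was the widest among members with a known start. The narrowest belonged to Rpl6 (1233 bp), Rps24 (1370 bp), Rps4x (1451 bp), Rpl8 (1482 bp) and Rpl36a (1731 bp). In the large subunit the median was 3172.5 bp and in the small subunit 2805.5 bp, and the quartile ranges of the subunits overlapped (2554 to 3615 bp and 2287 to 3271 bp).

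**Figure D3:**
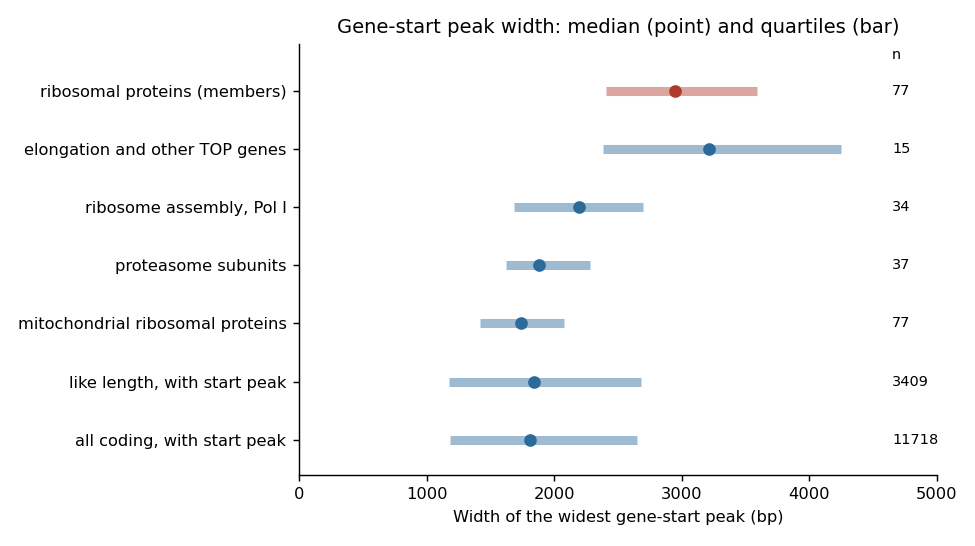
Width of the widest gene-start peak (bp) for ribosomal protein genes and for the comparison lists, as the median (point) and quartiles (bar) of each. The members' median is 2946 bp against 1808 bp over all protein-coding genes with such a peak.

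Some wide peaks were shared with other genes. The widest gene-start peak also covered the start of another protein-coding gene at 17 of 77 members (22.1%), against 19.5% of all genes with such a peak, a share near the background. For a neighbour without a promoter entry either end counted as a start, so some of these starts may be far ends. The peak of Rpl23a covered Nek8 and Tlcd1 as well, and that of Rpl18 covered Sphk2. The peaks of Rps15a, Rpl13a and Rps19 covered no other start. Another protein-coding gene lay in the windows of 60 members, whose median acetylated length was 3967 bp. It was 3214 bp in the 21 members with no such neighbour. How often other protein-coding genes have a neighbour in the window is not given here.

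Peak edges showed on which side of the start the width lay. For the 57 members with a known strand and a gene-start peak, the peak reached a median of 842 bp upstream and 2157 bp downstream of the annotated start. Genes of like length with such a peak (2744 with a strand) had medians of 726.5 bp upstream and 1070.5 bp downstream. The upstream reach was therefore similar and the downstream reach longer. The peak reached farther downstream than upstream at 53 of 57 members (93.0%), against 73.3% of all genes with a strand and a gene-start peak. The exceptions were Rpl10, Rpl18, Rps2 and Rps21.

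Position by position, the gap was larger after the start than before it. Over the 56 members outside the paralogs, 82.1% were under a peak 500 bp before the start and 39.3% at 1000 bp before it, against 68.4% and 37.3% of genes of like length with a gene-start peak. After the start, 96.4% of the members were under a peak at 1000 bp, 80.4% at 2000 bp and 35.7% at 3000 bp. The like-length genes fell to 56.2%, 19.8% and 12.1% at the same distances. All 56 members were under a peak at 650 bp after the start. More than 50% of members were covered from 850 bp before to 2650 bp after the start, and more than 50% of the like-length genes from 750 bp before to 1050 bp after it.

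**Figure D4:**
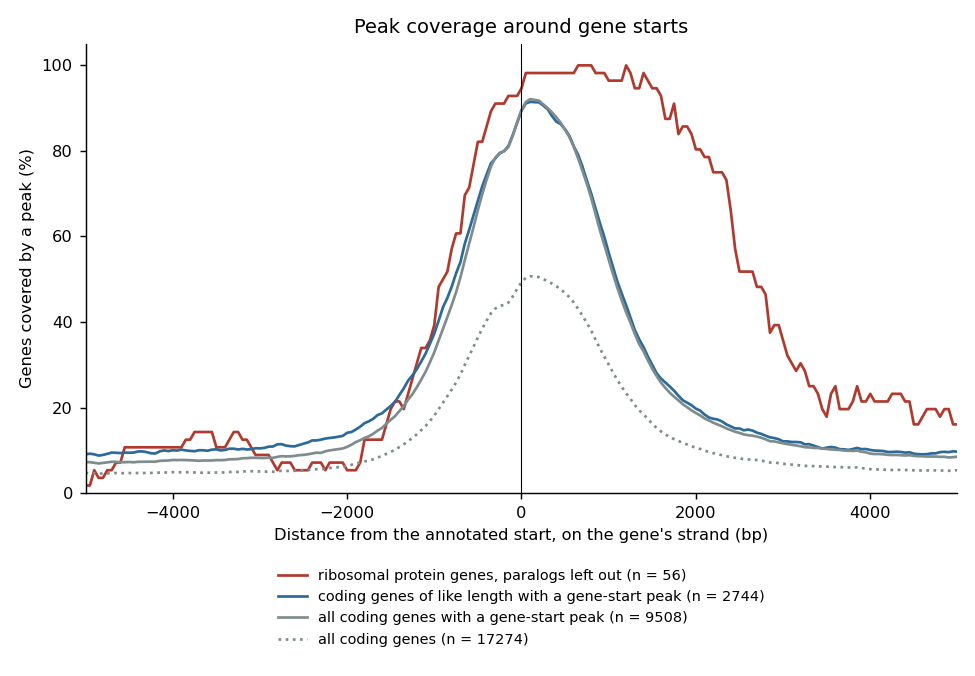
Share of genes (%) under a peak at each distance (bp) from the annotated start, on the gene's strand, for ribosomal protein genes and 3 comparison sets. At 2000 bp after the start the share is 80.4% of members and 19.8% of genes of like length with a gene-start peak.

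The start base itself was inside a peak at 54 of 57 members (94.7%), against 89.6% of all genes with a strand and a gene-start peak. The others were Rpl22, Rpl27 and Rpl36a. At Rpl22, a gene required for αβ T cell development and annotated with 2 starts, the peak began at 152325050 on chromosome 4, downstream of the outer start at 152324436. At Rpl36a it began 13 bp after the start. At 10 members the start in the promoter table lay more than 10 bp inside the annotated gene, so the position of a start is uncertain here. They included Rpl18 and Rps2, named above as exceptions in reach. At Rps2 the start was taken at 24720063 and the peak began at 24718730. The gene itself begins at 24718121, so the upstream reach of that peak lay inside the annotated gene.

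Peaks covered most of the gene body. The median member had 81.1% of its gene under peaks, against 22.0% for genes of like length with a gene-start peak. Of the members, 70 of 81 (86.4%) had more than 50%. That was so of 4.13% of all protein-coding genes and 8.44% of those of like length. Genes of like length with a gene-start peak shared the members' range of length but were longer, with a median of 5937 bp against 3175 bp. The effect of gene length on these shares was not tested. Rpl12, Rpl28, Rpl37a, Rplp1, Rps12, Rps21, Rps27 and Rps29 were covered over their whole length, a set named after the values were seen. The share of all genes covered in full is not given here. In the large subunit the median share was 76.7% and in the small subunit 91.3%. Genes made up 26.5% of the members' windows but held 54.8% of the acetylated bases (197058 of 359391 bp).

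The widest gene-start peak passed the far end of the gene at 7 of 57 members (12.3%: Rpl12, Rpl28, Rpl37a, Rpl41, Rps12, Rps21 and Rps27), against 1.86% of all genes with a strand and such a peak and 5.43% of those of like length. At Rpl41 that peak lay wholly downstream of the start, so it did not run from the start through the gene. The effect of gene length on the shares past the far end was not tested either. Gene length and downstream reach were only loosely related across members (Spearman's rho 0.17, 57 members from the same peak list). The peak of Rpl22, for example, stopped 3278 bp after the start of a gene of 9647 bp. Gene length and the acetylated bases inside the gene were more closely related (Spearman's rho 0.75, 76 members outside the paralogs). Those bases cannot exceed the length of the gene.

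Several peaks often lay close together. The windows held 236 distinct peaks, with 1 peak at 12 members, 2 at 25 and 3 or more at 42. Such counts over all protein-coding genes are not given here, so these describe the members only. Joining peaks at most 1000 bp apart widened the gene-start peak at 61 of 77 members (79.2%), against 33.2% of all genes with such a peak. The median became 3714 bp for members and 2005 bp for all genes. Rpl24 changed most, from 2162 to 13835 bp. Among the members with the narrowest peaks, Rps24 went from 1370 to 6197 bp, Rps4x from 1451 to 3842 bp and Rpl6 from 1233 to 2930 bp. Rpl6 thus stayed below the members' median, and Rpl8 became the narrowest, at 1947 bp. The list gives no signal between peaks, so whether neighbouring peaks form a single acetylated stretch cannot be told.

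Mouse ribosomal protein genes are known for many processed pseudogenes, copies without introns inserted elsewhere, and near-identical copies can make reads hard to place. The gene table held 315 pseudogenes named after a member, and 4 of them (1.27%, exact 95% interval 0.347 to 3.22%) overlapped a peak, against 3.14% of 10013 other pseudogenes. Any copy of a member listed under another kind of symbol counts among the other pseudogenes. The overlaps were short, 26 bp at Rpl18-ps1, 7 bp at Rpl30-ps3, 97 bp at Rps15a-ps5 and 6 bp at Rps2-ps4. The pseudogenes lay a median of 34239 bp from the nearest peak. Their median length was 528 bp against 942 bp for the other pseudogenes, and the effect of length on these shares was not tested. By contrast, 78 of 81 members (96.3%) had a peak inside the gene.

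A total of 62 members had at least 1 such pseudogene. Rpl31 and Rps12 had 23 each, and none of these overlapped a peak. Across 77 members, the number of pseudogenes so named had a Spearman's rho of 0.26 with the width of the gene-start peak and −0.12 with its widening on joining. The alignment filter for reads with several matches is not given in the sources used here, and its part in gaps inside members was not tested.

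**Figure D5:**
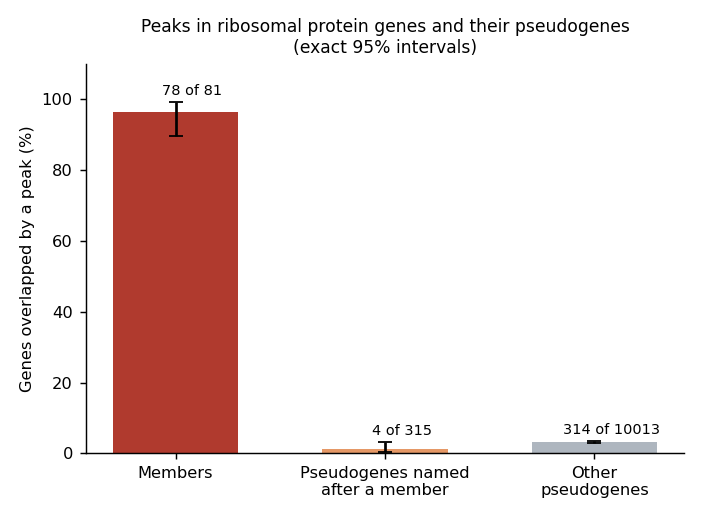
Share (%) overlapped by a peak, with exact intervals, for ribosomal protein genes, pseudogenes named after them and other pseudogenes. A peak overlaps 78 of 81 members (96.3%), 4 of 315 pseudogenes named after them (1.27%) and 314 of 10013 other pseudogenes (3.14%).

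The letters of 5 motifs were searched in the 300 bases around the start (250 before, 50 from it on) of the 56 members outside the paralogs with a promoter entry. None of the motifs contains another. CCGGAAG, the core bound by ETS factors such as GABPA, was present on either strand in 22 members (39.3%), against 12.1% of all 17274 promoters and 19.7% of the 9508 with a gene-start peak. AAGATGGC, a YY1 motif, was present on either strand in 5 (8.93%), against 3.23% and 4.92%. GGGCGG, the GC box, on either strand, was found in 33 (58.9%), against 46.9% and 66.4%. CACGTG, the E-box bound by MYC, was found in 5 (8.93%), against 8.01% and 10.4%. TATAAA in the 50 bases before the start, on the gene's strand, was found in 0, against 3.58% and 1.33%. Anywhere in the 300 bases, TATAAA was found in 5 members (8.93%), against 9.04% and 4.18%, a search added after Rplp0 was seen to carry it just after its annotated start.

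A pyrimidine tract of at least 8 bases overlapping the 25 bases on either side of the start was present in 32 of the 56 members (57.1%), against 23.4% of all promoters and 21.6% of those with a gene-start peak. Such a tract covered the start base in 15 members (26.8%), against 3.53% and 3.94%, a count added after the sequences were seen. It was the longest tract near the start in 14 of them (25%), against 3.05% and 3.30%. The longest tract near the start had a median of 9 bases in members and 5 in all promoters. GC content differed little in its median, at 57.5% in members, 56.3% in all promoters and 61.3% in those with a gene-start peak. The width of the gene-start peak had a median of 3134 bp in the 15 members with a tract over the start and 2828 bp in the 41 others. It was 2736 bp in the 22 members with CCGGAAG and 3273.5 bp in the 34 others. A match gives letters only and does not show that a factor was bound.

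Other genes of the translation machinery were described from lists. Of 8 ribosomal protein genes that the symbol rule missed, 7 had a gene-start peak (not Rps27rt), with a median acetylated length of 4439.5 bp. Rack1, a scaffold on the small subunit, had 8170 bp and a gene-start peak of 6673 bp. Rpl22l1, a paralog of Rpl22, had 1860 and 1752 bp for the same measures.

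Elongation factors and other genes with 5′ TOP messenger RNAs had a gene-start peak at 15 of 15, a median acetylated length of 6024 bp and a median peak width of 3215 bp, above the members' 2946 bp. Eef1a1, which brings aminoacyl-tRNA to the ribosome, had 4842 bp of acetylated length, and Eef2, the translocation factor, had 8805 bp. Genes of ribosome assembly and RNA polymerase I had a gene-start peak at 34 of 34, with a median width of 2191.5 bp, lower than that of the members. Genes listed as regulators had a gene-start peak at 15 of 15, with a median width of 3080 bp. The list included Mdm2 and Trp53, so not all of it is known to act on ribosomal protein genes or their messenger RNAs. Myc had a gene-start peak of 7166 bp, Yy1 one of 4635 bp and Gabpa one of 3431 bp. Larp1, which binds the 5′ TOP, had 12005 bp of acetylated length.

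Mitochondrial ribosomal protein genes, which encode the separate ribosome of that organelle, had a gene-start peak at 77 of 78, with a median width of 1743 bp. Proteasome genes, another set of protein complex subunits, had one at 37 of 39, with a median width of 1885 bp. A gene-start peak was therefore present at nearly every gene of all these lists. Widths near 3000 bp were shared with the elongation factors and regulators, and those of the mitochondrial ribosome and the proteasome were close to the 1808 bp of all genes.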

How the data were processed

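H3K27ac ChIP-seq peaks of Th17 cells were analysed, from 2 IP and 2 input DNA libraries. Per the submitters' processing notes, the genome build was GRCm38 (mm10) and the tools included MACS2 2.2.6 for peaks, Bowtie2 2.3.4.1 for alignment, deepTools, and SAMtools 1.9. The deposited list gives chromosome, start, end and name of each peak. How strict the peak calling was, and whether replicates were pooled for it, is not given in the sources used here. Starts were read as counted from 0 and are printed counted from 1.

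Genes, and promoters with strand, came from RefSeq tables of GRCm38.p6. An overlap was at least 1 bp. Promoter entries matched 61 of 81 members. The members and lists were chosen with earlier results of these data known. Genes were named by rule: 5 at each end of acetylated length and of gene-start width, members without a gene-start peak, stalk genes, paralogs, Rps4x, Rpsa, Rps27a and the most small nucleolar RNA genes; others were chosen after their values were seen. Pseudogenes were those with a member's symbol followed by -ps and an optional number. Python 3.11.15, pandas 2.3.3 and scipy 1.17.1 were used, with Clopper-Pearson intervals. The overlap code was tested on simulated data. Alternatives changed windows, flanks, peak widths and merging.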

Additional observations from a re-analysis of the deposited data

How the results depend on the processing

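The share of members with a gene-start peak stayed at 95.1% with start windows of 500 and 2500 bp and with peaks of at least 500 or 1000 bp, was 96.3% with either gene end as a start, 93.4% over members with a promoter entry only (chosen after seeing the data), and fell to 81.5% when the peak's midpoint had to lie in the start window. The median acetylated length was 2404 bp with no flank (704 bp over all genes) and 6405 bp with flanks of 20000 bp (2399 bp over all genes). The median gene-start width rose to 3714 bp when peaks at most 1000 bp apart were merged. The share of pseudogenes with a peak was 4.44% with 1000 bp on each side and 0.472% for those at least 5000 bp from a coding gene. The share of gene-start peaks over another start was 22.1 to 28.6% across its alternatives. No paired analysis was possible because the peak list carries no replicate values. Read depth, peak height and the agreement of the replicates are unknown, and a missing peak does not show that acetylation is absent.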

Other observations

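The genes without a gene-start peak were Mrpl4 in the list of the mitochondrial ribosome, and Psma8 and Psmb11 in that of the proteasome. Psma8 is known as a testis subunit and Psmb11 as a subunit of the thymic cortex. They were named after their values were seen.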
